A study of Danio rerio with 6 samples.

Results

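The genes described here encode the enzymes that copy DNA and those that mend it, from the proteins that license replication origins to the ligases, topoisomerases and repair factors. They were picked through a list of symbols and symbol patterns applied to the array's annotation, which uses names only. The patterns found 60 of the 8793 genes named by 1 symbol on the array, and a gene with several probe sets, the array's units of measurement, was represented by the brightest. No filter on low values was applied, so all 60 were tested.

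Transcript levels were measured with the Affymetrix zebrafish genome array. Each array received RNA of whole AB strain embryos collected 12 h after fertilisation, when they have 6 somites. The 3 control samples are labelled as wild type, and the 3 Ovo1 morphant samples as wild type embryos whose Ovo1, the product of a zinc finger gene regulator, was blocked with an injected morpholino (a synthetic antisense molecule), and as carrying the reporter sox10(7.2):gfp. The design text calls the embryos of both groups transgenic, so whether the reporter separates the groups is not settled by the labels, and neither the injection of controls nor the number of embryos per sample is stated. A morpholino acts throughout the embryo, and in RNA of whole embryos fewer replicating cells and less RNA per cell cannot be told apart. No probe set is named as an ovo gene, so the knockdown was not checked here. The comparison asks which transcripts differ at the stage at which the design text first places neural crest defects.

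Before a cell divides, the origin recognition complex, Cdc6 and Cdt1 load the ring-shaped MCM helicase onto DNA, and geminin and the ubiquitin ligase subunit Dtl keep Cdt1 from loading it again within the same cycle. At the fork, GINS joins the helicase, Wdhd1 tethers the priming polymerase, RFC loads the sliding clamp Pcna for the replicative polymerases, and Fen1 and Lig1 join the pieces of the lagging strand. In vertebrate cells many of these genes are transcribed most as cells enter S phase.

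On the 6 arrays the median deposited intensity lay between 132.73 and 154.08, and with so few arrays each value is of limited precision. The first principal component held 48.3% of the variance and separated the groups, and the second, with 29.6%, set the 2 arrays numbered 1 apart from the others. The deviations of same-numbered controls and morphants from the means of their groups correlated over probe sets, at 0.58, 0.46 and 0.54. Probe sets do not count as independent replicates. Correlations between arrays of unlike number were not computed, so these values do not settle whether numbers 2 and 3 are matched between the groups. A fit with the replicate number as a block is given as an alternative beside the counts that it changes. The labels do not state separate clutches for the samples of a group. The p-values therefore rest only on the spread among these samples, which may be technical. Arrays are named below by group and number, as control 2 or morphant 3.

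Genes that act at origins, at forks, in ligation and in nucleotide supply were among those that fell in morphants. Of the 60 genes, 18 were lower and 0 higher (limma, Benjamini-Hochberg adjusted p under 0.05 over all probe sets, n = 3 per group), or 30.0%, where 3.57% of all named genes were called lower and 3.23% higher. The symbols were listed with earlier results of these data known, so these counts are a description and not independent evidence of a direction. The unadjusted p was under 0.05 in 34 of the 60, against 23.9% of all named genes. The largest decreases were in lig1, the ligase of the lagging strand, in top2b, a type II topoisomerase, and in rfc1, the large subunit of the clamp loader, and these 3 were the only members called with a decrease of at least 2-fold (0.364% of all named genes were). The other 15 called genes fell by between 0.43 and 0.90 on the log2 scale.

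Over the 60 genes the median log2 difference was −0.26, beside +0.01 over all named genes, and 50 lay below 0, where 48.6% of all named genes did. All 3 morphants lay below all 3 controls in 33 of the 60, against 14.4% of all named genes, and above them in 1, xrcc5, against 14.5%. With the replicate block 30 were lower and 2 higher, where 10.6% and 10.7% of all named genes were, and the 30 include each of the 18. The count of 18 was 9 without morphant 2, 10 without control 2 or 3, and between 12 and 19 without each other array, while the median stayed between −0.31 and −0.25. All log2 differences are morphant minus control, given with their standard error, on log2(intensity + 16) after quantile normalization, and intensities are given on the deposited scale after that normalization. They are not comparable between genes, since each probe set has its own brightness.

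**Figure D1:**
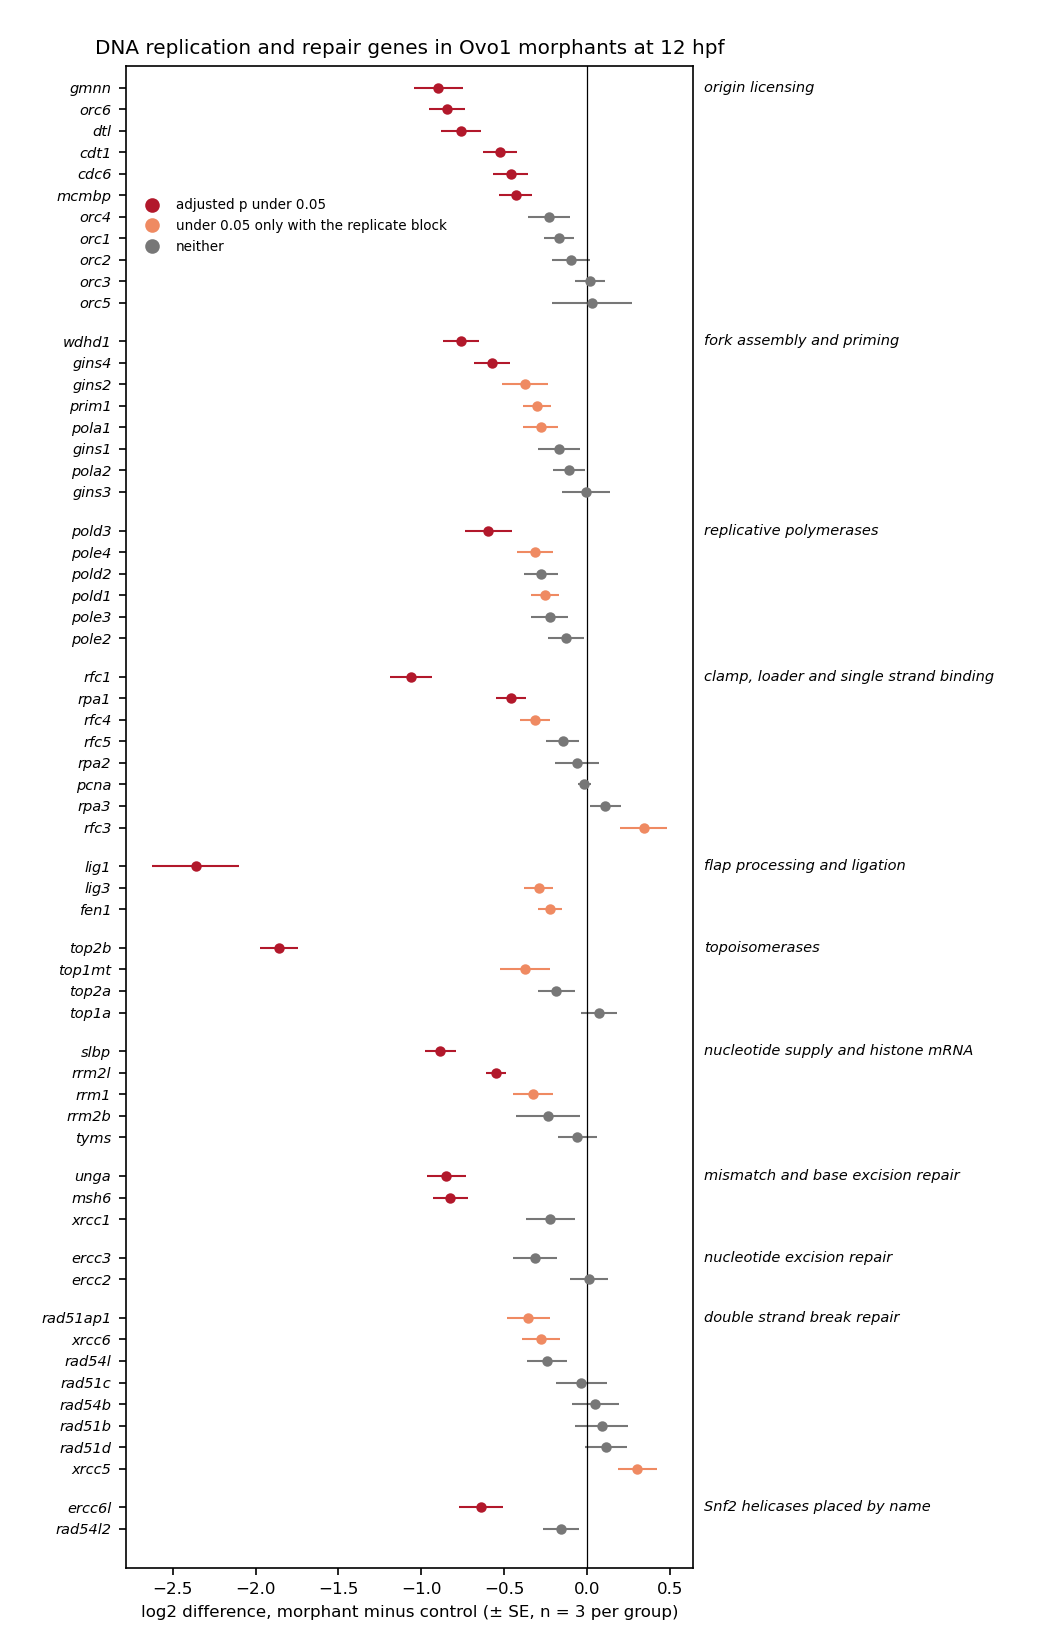
Log2 difference (x axis, morphant minus control, ± SE, n = 3 per group) of each of the 60 genes, grouped by role. Dark red points have an adjusted p under 0.05, orange points only with the replicate block, and grey points in neither fit; the 18 dark red points all lie left of 0, and lig1 lies farthest at −2.36.

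**Figure D2:**
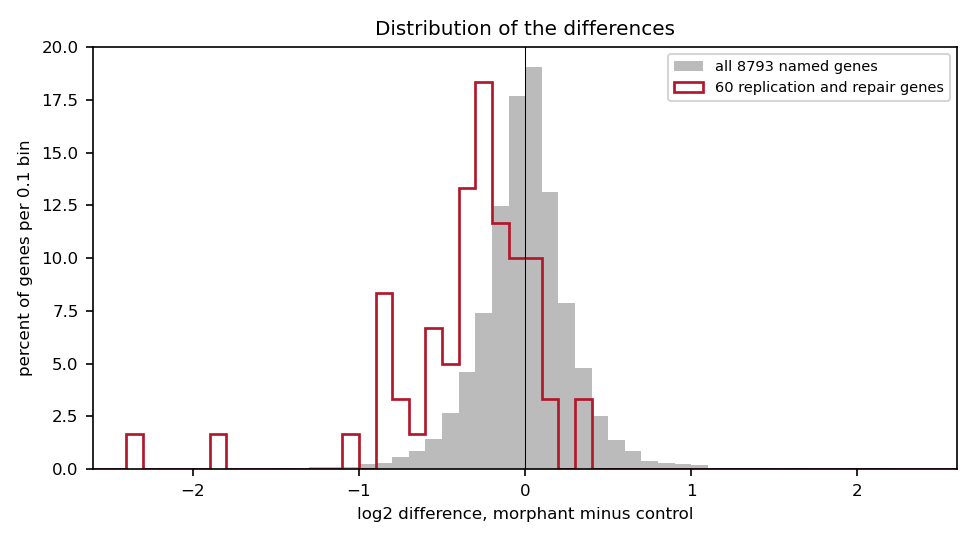
Distribution of the log2 differences (x axis) of the 60 replication and repair genes (red outline) and of all 8793 named genes (grey), as the percent of genes in each bin of width 0.1 (y axis). The medians are −0.26 and +0.01.

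Origin licensing, the role with the most genes, also held the most calls, with 6 of 11 genes lower (54.5%) and 0 higher. Over all named genes 3.57% were lower. In the 3 genes of mismatch and base excision repair the share was 66.7%. A role of so few genes gives a coarse share, and whether roles differ was not tested. The licensing inhibitor gmnn, geminin, which binds Cdt1, read 873, 949 and 875 in controls and 593, 468 and 385 in morphants. Its morphant values do not overlap the controls and spread more than they do, and its difference was −0.90 ± 0.15 (adjusted p = 0.0117). The gene orc6, which encodes the smallest subunit of the origin recognition complex, read 594, 690.2 and 597 in controls and 361, 338 and 326 in morphants. The groups stand well apart, by −0.84 ± 0.11 (adjusted p = 0.00343), a 1.79-fold decrease. For dtl, whose product directs Cdt1 to a ubiquitin ligase for destruction in S phase, the arrays read 376, 467 and 381 in controls and 236, 233 and 231 in morphants. The 3 morphant values of dtl are nearly equal, at −0.76 ± 0.12 (adjusted p = 0.00968).

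The other 3 called licensing genes had smaller differences, and whether these sizes differ from those above was not tested. The licensing factor cdt1 read 822, 918 and 769 in controls and 549, 613 and 562 in morphants, a difference of −0.53 ± 0.10 (adjusted p = 0.0242). The ATPase gene cdc6 read 867, 1043 and 912 in controls and 652, 653 and 731 in morphants, at −0.46 ± 0.10 (adjusted p = 0.0406). For mcmbp, whose product binds MCM proteins, the values were 783, 894 and 834 in controls and 576, 633 and 643 in morphants, at −0.43 ± 0.10 (adjusted p = 0.0409). In each of these 3 genes the highest morphant lies below the lowest control. The call of orc6 stayed without each array in turn. Those of cdt1, cdc6 and mcmbp ended without any array other than morphant 1 (adjusted p up to 0.104, 0.151 and 0.169), that of gmnn without control 2 or 3 or morphant 2 (up to 0.0636), and that of dtl without morphant 2 (0.0531).

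The other 5 subunits of the origin recognition complex were not called in either fit. Their differences ran from −0.23 ± 0.13 in orc4 to +0.03 ± 0.24 in orc5, where the sign of orc3 and orc5 turned between settings, and morphants and controls overlapped in all of them but orc1. The 95% interval of orc3 ran from −0.18 to +0.22, whereas that of orc5, a dimmer and more variable probe set, ran from −0.52 to +0.58 and so includes decreases of the size seen in cdc6.

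In fork assembly and priming, 2 of 8 genes were lower and 0 higher, and all 8 differences lay below 0. The adaptor wdhd1, which links the helicase to DNA polymerase alpha, read 784, 814 and 790.1 in controls and 446, 426 and 527 in morphants. Its controls are tightly grouped and its morphants lie far below, at −0.76 ± 0.11 (adjusted p = 0.00543), and the call stayed without each array in turn. The GINS subunit gene gins4 read 547, 659 and 577 in controls and 397, 389 and 394 in morphants. Its morphants agree closely with each other, and the difference was −0.57 ± 0.11 (adjusted p = 0.0187). That call ended without number 2 or 3 of either group (adjusted p up to 0.0937).

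The primase and polymerase alpha genes had smaller differences. The primase subunit prim1 read 910.2, 927 and 929.6 in controls and 736, 742 and 757 in morphants, and the catalytic subunit pola1 of polymerase alpha read 857, 928 and 948 in controls and 668, 767 and 814 in morphants. Neither gene's groups overlap. The differences of prim1 (−0.30 ± 0.08), pola1 (−0.28 ± 0.10) and gins2 (−0.37 ± 0.14) passed the test with the replicate block only, at adjusted p of 0.0213, 0.0322 and 0.0208. The genes gins1 (−0.17 ± 0.13), pola2 (−0.11 ± 0.10) and gins3 (−0.01 ± 0.15) passed in neither fit, and the sign of gins3 turned between settings.

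Of 6 subunits of the replicative polymerases delta and epsilon, 1 was lower (16.7%, beside 3.57% of all named genes) and 0 higher. This was pold3, an accessory subunit of polymerase delta, which read 481, 534 and 488 in controls and 401, 300.1 and 287 in morphants. Morphant 1 lies between the controls and the other 2 morphants, and the difference was −0.59 ± 0.14 (adjusted p = 0.0444). Without any array other than morphant 1 the call ended (adjusted p up to 0.168). The catalytic subunit gene pold1 (−0.25 ± 0.08) and the small epsilon subunit gene pole4 (−0.31 ± 0.11) passed only with the block (adjusted p = 0.0449 and 0.0389). The other, dimmer probe set of pold1 was at −0.14 ± 0.13 with overlapping groups and passed in neither fit. The values of pold2 (−0.28 ± 0.10), pole3 (−0.22 ± 0.11) and pole2 (−0.13 ± 0.11) passed in neither fit, though all 3 lie on the lower side and only the groups of pole2 overlap.

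Among the clamp, its loader and the single strand binding proteins, 2 of 8 genes were lower and 0 higher. The clamp loader gene rfc1 read 521, 478 and 579 in controls and 276, 229 and 227 in morphants. All 3 morphants lie far below all 3 controls, at −1.06 ± 0.12 (adjusted p = 0.00229), and the call stayed without each array in turn. The gene rpa1, which encodes the large DNA-binding subunit of replication protein A, read 3321, 3692 and 3790.3 in controls and 2325, 2706 and 2846 in morphants. Here the groups are closer, at −0.46 ± 0.09 (adjusted p = 0.0242), and the call ended without control 2 or 3 or morphant 2 (adjusted p up to 0.118).

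The sliding clamp gene pcna, the brightest member, had nearly the same level in both groups. It read 9258, 9424 and 9299 in controls and 9299, 9188 and 9188 in morphants, with repeated values because quantile normalization gives probe sets of equal rank the same value. The groups overlap. Its difference was −0.02 ± 0.04, with a 95% interval from −0.10 to +0.07, and it was −0.08 with the values as deposited. The smaller clamp loader subunits rfc4 and rfc3 went opposite ways, at −0.31 ± 0.09 and +0.34 ± 0.14, and both passed with the block only (adjusted p = 0.0197 and 0.014). The other, dimmer probe set of rfc4 was at −0.18 ± 0.12 with overlapping groups and passed in neither fit. The gene rfc3 read 572, 740.2 and 712 in controls and 714, 956 and 913 in morphants, so that its lowest morphant falls inside the control range. The genes rfc5 (−0.15 ± 0.10), rpa2 (−0.06 ± 0.13) and rpa3 (+0.11 ± 0.09) passed in neither fit, and the sign of rpa2 turned between settings.

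The joining of lagging strand pieces held the largest decrease of the 60. The ligase gene lig1 read 1500.0, 1156 and 1339.9 in controls and 401, 214 and 169 in morphants. The highest morphant lies far below the lowest control, and the morphants themselves differ by more than the controls do. The difference was −2.36 ± 0.26, a 5.14-fold decrease (adjusted p = 0.00171), and it was called without any one array, at −2.70 to −2.12. The ligase gene lig3, whose product works in base excision repair and in mitochondria, read 855, 888 and 906 in controls and 729, 728 and 698 in morphants. Its groups do not overlap, yet the difference was −0.29 ± 0.09 and passed with the block only (adjusted p = 0.0282). The same holds for fen1, the flap nuclease that prepares ends for ligation, at −0.22 ± 0.07 (adjusted p = 0.0461 with the block).

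Of 4 topoisomerase genes 1 was lower, top2b, and 0 higher. Type II topoisomerases pass one DNA helix through another, Top2a mainly in dividing cells and Top2b also in cells that have stopped dividing, as known from mammals. The brightest top2b probe set, of the s_at type, read 642, 633 and 737 in controls and 189, 164 and 167 in morphants. No morphant comes near the controls, and the difference was −1.86 ± 0.12, a 3.63-fold decrease (adjusted p = 6.03e-05) that held without any one array. The chip has 4 further top2b probe sets, all dimmer, with differences of −0.86 ± 0.22, −0.72 ± 0.12, −0.38 ± 0.11 and −0.15 ± 0.10. They lie at percentiles 16.2 to 34.0 of all probe sets, where the added 16 shrinks differences. All 5 lie below 0 and 2 were called, of which that of −0.72 ± 0.12 ended without control 3 or morphant 2 (adjusted p up to 0.0615). With the block 4 of the 5 were called. The mean of the 5 fell by 0.80 on the log2 scale, so the size of the decrease depends on the probe set. The part of the shrinking at low intensity in this was not tested. An s_at probe set has probes that can match more than 1 transcript, and the part of any other transcript in its signal was not tested.

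The paralogue top2a was not called in either fit. Its brightest probe set read 443, 432 and 377 in controls and 383, 365 and 346 in morphants, with overlapping groups and a difference of −0.18 ± 0.11 (95% interval from −0.43 to +0.07). Of its 5 probe sets 2 lay below 0 and 3 above, 0 were called in either fit, and the sign of the gene turned with the mean of the probe sets. The type I topoisomerase gene top1a, with 6 probe sets of which 3 lay below 0, was at +0.07 ± 0.11 and also changed sign between settings. The mitochondrial enzyme gene top1mt was at −0.37 ± 0.15 and passed with the block only (adjusted p = 0.0236). Its other, dimmer probe set was at −0.38 ± 0.14 and passed in neither fit.

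**Figure D3:**
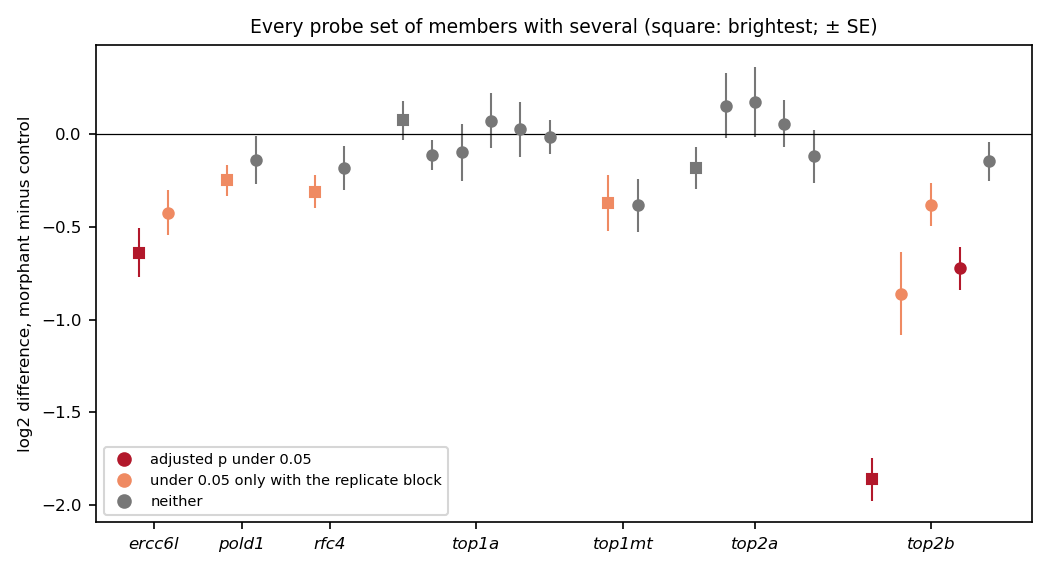
Log2 difference (y axis, morphant minus control, ± SE, n = 3 per group) of every probe set of the 7 members with more than 1, ordered within a gene from bright to dim, with the brightest as a square. All 5 top2b probe sets lie below 0, from −1.86 to −0.15, while those of top2a and top1a fall on both sides.

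Nucleotide supply and histone mRNA handling held 2 calls among 5 genes, both lower. The gene slbp, whose product binds the stem-loop of histone mRNAs and is needed for histone supply in S phase, read 2310.1, 2176 and 2361 in controls and 1356, 1239.5 and 1099 in morphants. The groups are far apart, at −0.89 ± 0.09 (adjusted p = 0.0012). The gene rrm2l, which by its name encodes a small subunit of ribonucleotide reductase, the enzyme that makes deoxynucleotides, read 4697, 4939 and 4995 in controls and 3503, 3171 and 3328 in morphants. Replicates agree closely in both groups, at −0.55 ± 0.06 (adjusted p = 0.00171), and both calls stayed without each array in turn. The large subunit gene rrm1 read 2806, 3130.2 and 3140.4 in controls and 1966, 2728 and 2616 in morphants. Its morphant 1 is the lowest array, the groups do not overlap, and the difference of −0.32 ± 0.12 passed with the block only (adjusted p = 0.0131) and was −0.18 without morphant 1. The genes rrm2b, a small subunit induced by DNA damage in mammals, and tyms, thymidylate synthase, passed in neither fit, at −0.23 ± 0.20 and −0.06 ± 0.12.

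In mismatch and base excision repair 2 of 3 genes were lower (66.7%, beside 3.57% of all named genes). The uracil-DNA glycosylase gene unga, which removes uracil from DNA, read 678, 867 and 794 in controls and 396, 439 and 438 in morphants. The difference was −0.85 ± 0.12 (adjusted p = 0.00474). The mismatch recognition gene msh6 read 713, 684 and 777 in controls and 428, 369.5 and 409 in morphants, and its difference was −0.82 ± 0.11 (adjusted p = 0.00343). In both genes the morphants lie well under the controls, and both calls stayed without each array in turn. The scaffold gene xrcc1 of single strand break repair was at −0.22 ± 0.15 with overlapping groups.

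The other repair pathways held few calls. In nucleotide excision repair neither helicase gene of the transcription and repair factor TFIIH passed in either fit, with ercc3 at −0.31 ± 0.13 and ercc2 at +0.01 ± 0.12, a value that changed sign between settings. In double strand break repair 0 of 8 genes were called without the block, and their median difference was +0.01. The unadjusted p in limma was under 0.05 in 3 of them (37.5%, beside 23.9% of all named genes), not all in 1 direction. The end-binding Ku proteins split: the Ku80 gene xrcc5 read 1063, 1259 and 1264 in controls and 1267, 1562 and 1619.8 in morphants. The Ku70 gene xrcc6 read 822, 938 and 976 in controls and 675, 726 and 851 in morphants. Every morphant is above every control in xrcc5, by +0.30 ± 0.12, while in xrcc6 the groups overlap, at −0.28 ± 0.12, and both passed with the block (adjusted p = 0.0138 and 0.0346). With the block the recombination factor rad51ap1 was lower as well (−0.35 ± 0.13, adjusted p = 0.0337).

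The recombination genes rad51b (+0.09 ± 0.16), rad51c (−0.03 ± 0.15) and rad51d (+0.11 ± 0.13) and the Rad54 family genes rad54l (−0.24 ± 0.12) and rad54b (+0.05 ± 0.14) passed in neither fit, and the signs of rad51b, rad51c and rad54b turned between settings. They are among the dimmer members, with rad51d at percentile 26.0 of all probe sets, where the pseudocount shrinks differences. The symbol patterns also took in 2 helicases of the Snf2 family by name. One is ercc6l, known in mammals as a mitotic helicase of anaphase DNA bridges and not an excision repair factor, which read 448, 540.4 and 483 in controls and 322, 343 and 264 in morphants. It was lower, at −0.64 ± 0.13 (adjusted p = 0.0274), and its second probe set stood at −0.42 ± 0.12 and passed with the block only. The call ended without number 2 or 3 of either group (adjusted p up to 0.12). The other, rad54l2, was at −0.15 ± 0.11 and passed in neither fit.

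**Figure D4:**
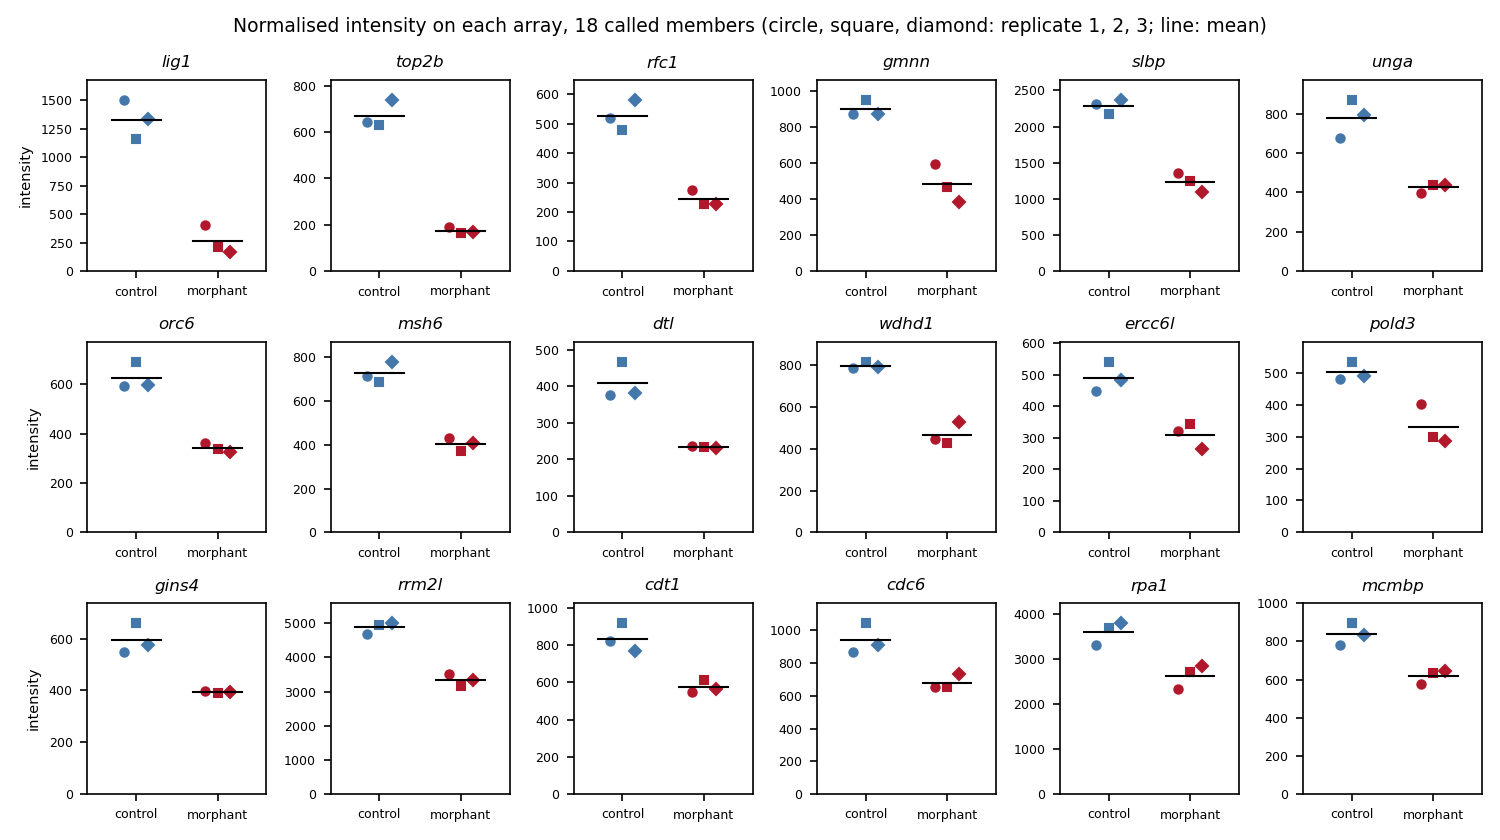
Normalised intensity (y axis, linear from 0) on each array for the 18 called genes, with controls in blue, morphants in red, replicates 1, 2 and 3 as circle, square and diamond, and group means as lines. In each of the 18 genes the highest morphant lies below the lowest control.

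Several of these proteins work as parts of one complex or as alternatives within one enzyme class. Each subunit was therefore set against the mean of its measured partners within the same array. A shift shared by all log2 values of an array cancels in such a ratio. The comparison was added after the values were seen and gave 33 ratios over 12 complexes or classes. With 3 against 3 arrays the exact two-sided permutation test cannot go below 0.1, so no ratio could have passed. That value was reached by 16 of the 33 and becomes 0.206 after Benjamini-Hochberg adjustment. It is the value of every ratio whose groups do not overlap, so the ratios without overlap named below are these same 16. How often such ratios arise among other genes was not computed. Relative to its partners rfc1 was lower by 1.02 ± 0.19 on the log2 scale and rfc3 higher by 0.85 ± 0.16. Against the other 5 subunits orc6 shifted by −0.76 ± 0.11, and against rpa2 and rpa3 rpa1 shifted by −0.48 ± 0.08. The ratio of lig1 to lig3 shifted by −2.07 ± 0.36, that of top2a to top2b by +1.68 ± 0.14, or by +0.81 ± 0.06 with the mean of all probe sets of each gene, and that of xrcc5 to xrcc6 by +0.58 ± 0.06. In all 7 ratios the 3 morphant values lie on one side of the 3 control values. The 9 ratios of the polymerase alpha, delta and epsilon subunits ran from −0.33 in pold3 to +0.18 in pold1, and in 4 of them, those of pola2, pold1, pole2 and pole4, the groups did not overlap either. The same held for orc3 (+0.28 ± 0.05), gins3 (+0.37 ± 0.13), gins4 (−0.39 ± 0.10), rfc5 (+0.20 ± 0.04) and rpa3 (+0.37 ± 0.10). The ratios within a complex are tied and are not separate results, since a low subunit raises the ratios of its partners. Thus rfc5, itself at −0.15, stands higher relative to partners that include rfc1 at −1.06. Likewise orc3, itself at +0.02, is set against partners that include orc6 at −0.84.

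**Figure D5:**
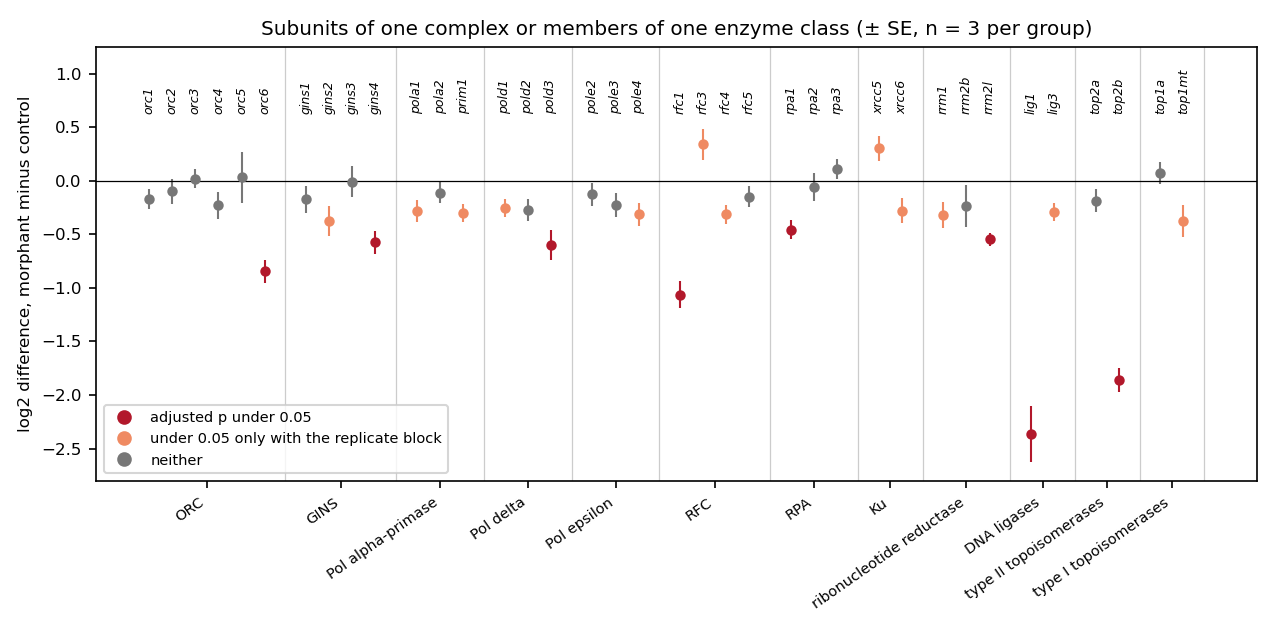
Log2 difference (y axis, morphant minus control, ± SE, n = 3 per group) of members that share a complex or an enzyme class, with colours as in the plot of all 60 genes. The lowest members are orc6 at −0.84 in the origin recognition complex, rfc1 at −1.06 in the clamp loader, where rfc3 is highest at +0.34, lig1 at −2.36 beside lig3, and top2b at −1.86 beside top2a.

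The median over the 60 genes was −0.22 in pair 1, −0.28 in pair 2 and −0.29 in pair 3, and 44 genes were lower and 3 higher in all 3 pairs, where 26.7% and 27.7% of all named genes were. Over the 18 called genes the medians were −0.60, −0.83 and −0.78. For lig1 the 3 pair differences were −1.86, −2.35 and −2.88, and for gmnn −0.55, −0.99 and −1.15. The labels give the replicate numbers no order in time or dose, so these values are not a trend. Larger decreases from pair 1 to pair 3 were also not shared by all called genes, with wdhd1 at −0.79, −0.91 and −0.57. Without both arrays numbered 1, an alternative added after seeing the data, 22 of the 60 genes were lower, 2 were higher and the median was −0.27. The share of all named genes called was not computed for this setting.

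Further genes of the same pathways, which the symbol patterns do not take in, had a median nearer 0. Of 78 such genes measured 8 were lower (10.3%) and 3 higher (3.8%), with a median of −0.13, where 3.57% and 3.23% of all named genes were. With the block 23 were lower (29.5%) and 5 higher (6.4%), where 10.6% and 10.7% of all named genes were, so the counts of higher genes are near or under the share over all genes. Among 21 fork genes the lower ones were esco2, the cohesin acetyltransferase (−0.54 ± 0.10), ssrp1a, of the histone chaperone FACT (−0.42 ± 0.08), and rbbp4, a histone-binding protein (−0.33 ± 0.08), and the higher one was rnaseh2b, a subunit of the enzyme that removes ribonucleotides from DNA (+0.70 ± 0.08). Among 57 repair genes the lower ones were eme1, a partner of the Mus81 nuclease (−0.99 ± 0.12), prkdc, the kinase of end joining (−0.80 ± 0.19), rad9a, of a checkpoint clamp (−0.63 ± 0.15), gtf2h2, of TFIIH (−0.50 ± 0.12), and apex1, an abasic site nuclease (−0.22 ± 0.05).

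The higher repair genes were parp3, a poly(ADP-ribose) polymerase, and ddb1, an adaptor of the ubiquitin ligase in which Dtl also works. The gene parp3 read 88.4, 70.6 and 83.7 in controls and 369.6, 289.9 and 276 in morphants, at +1.75 ± 0.15 (adjusted p = 0.000304), with the groups far apart. For ddb1 the difference was +0.34 ± 0.08 (adjusted p = 0.0483). The calls of eme1, rnaseh2b and parp3 stayed without each array in turn. Those of the other 8 ended when 1 of 3 to 5 of the 6 arrays was left out (the highest adjusted p was 0.18, in apex1), morphant 1 ending only that of rbbp4. The count of lower genes thus ran from 1 without control 3 to 12 without morphant 1, with 3 without control 1 and 2 without control 2, morphant 2 or morphant 3.

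Genes of the cell cycle phases were measured beside these. Of 15 genes of the passage from G1 to S phase 2 were lower, the kinase gene cdk2 (−0.51 ± 0.12) and the repressor gene e2f8 (−0.70 ± 0.14), and 0 higher, with a median of −0.20. These 2 were 13.3% of the 15, where 3.57% of all named genes were called lower. Both calls ended without any array other than morphant 1 (adjusted p up to 0.158 and 0.111). The unadjusted p in limma was under 0.05 in 7 of the 15 (46.7%), beside 23.9% of all named genes. Of 22 genes of G2 phase and mitosis 0 were called in limma, where 5 had an unadjusted p under 0.05 (22.7%, beside 23.9% of all named genes), and the median was +0.02. With the block 6 G1 to S genes were lower and 1 higher, and 0 G2 and mitosis genes were lower and 3 higher, or 13.6%, near the 10.7% of all named genes. Whether the 2 phases differ was not tested.

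Markers of the embryo's tissues were measured beside these as a description, and none of the 31 was at 0 on any array. In both groups all 6 neural plate, all 6 mesoderm, all 5 neural crest, all 4 epidermal and 3 of 4 endoderm markers lay above the 25th percentile of all probe sets, as did 4 of 6 germ line and maternal ones. Most probe sets lie above that percentile by definition, so this does not test the whole embryo label. The summed level of the neural plate markers was between 9152 and 9318 in controls and between 7506 and 8428 in morphants, and 2 of the 6, sox2 (−0.41 ± 0.10) and sox19a (−0.27 ± 0.07), were lower. The neural crest markers summed to between 4864 and 5148 in controls and between 3694 and 4077 in morphants, with crestin lower (−1.23 ± 0.24). Of these 5 markers 4 lay below 0 and 1 above. The mesoderm markers summed to between 3826 and 3845 in controls and between 3433 and 3644 in morphants. Of these 6 markers 0 were called without the block, 4 lay below 0 and 2 above, and the groups overlapped in 5. The endoderm markers summed to between 1881 and 2078 in controls and between 2124 and 2413 in morphants. All 4 lay above 0, and 0 were called without the block. The epidermal sums overlapped, at 20206 to 21788 in controls and 21091 to 22474 in morphants. Of the 4 epidermal markers tp63 was lower (−0.48 ± 0.09), and the other 3 lay above 0. The germ line and maternal markers also overlapped, at 667 to 921 and 512 to 714, with the oocyte histone chaperone gene npm2b lower (−2.02 ± 0.23). Of the 31 markers 5 were lower (16.1%) and 0 higher, where 3.57% and 3.23% of all named genes were. With the block 10 markers were lower (32.3%) and 2 higher (6.5%), where 10.6% and 10.7% of all named genes were. Those called with the block only were foxd3 (−0.30 ± 0.10), sox10 (−0.33 ± 0.15) and tfap2a (−0.24 ± 0.07) of the neural crest, otx2b (−0.37 ± 0.12) of the neural plate and myf5 (−0.32 ± 0.10) of the mesoderm, all lower, and foxa3 (+0.43 ± 0.11) of the endoderm and ddx4 (+0.42 ± 0.14) of the germ line, both higher. The value of sox10 was −0.18 without morphant 1. The calls of sox2, sox19a and tp63 ended without any array other than morphant 1 and that of crestin without control 1 or 3 or morphant 2 (adjusted p up to 0.197, that of sox2), while that of npm2b stayed. A sum adds probe sets of unequal brightness and is set mostly by its 2 brightest. In controls these made up between 60.6% of the sum, for the neural plate, and 97.1%, for the endoderm. For the epidermis krt4 and krt5 made up 91.4%, and for the neural crest tfap2a and foxd3 made up 72.4%. The sums therefore do not measure amounts of tissue. The part of these marker differences in the decrease of replication genes was not tested.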

How the data were processed

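Linear probe set intensities were deposited for each array. The submitters' processing notes name PLIER and Expression Console 1.1, and the sources used here do not give their settings for background, normalization or offset. Of 15617 probe sets 115 controls were left out. Log2 medians of arrays differed by up to 0.19, so log2(intensity + 16) was quantile normalized. Genes were named through the platform annotation, which gives 1 symbol for 10795 of the 15502 probe sets tested, several for 135 and none for 4572. Members were matched by the platform symbol, with a match by symbols updated through gene identifiers as an alternative. Probe sets were grouped into genes by the updated symbol throughout.

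Groups came from the sample titles and were compared by linear models in limma 3.58.1 under R 4.3.3, with an intensity trend in eBayes. The p-values were adjusted over 15502 probe sets. Members, gene lists and alternatives were chosen with earlier results of these data known. Genes given with values are those called with or without the block, the smallest p of each role, the 4 brightest, and the called genes of the other lists, for tissue markers with or without the block. Values of all further members were added after they were seen, so that no member is left out. The tables used here hold no promoter, protein or probe sequences, so a planned motif search was not run. Figures were drawn with matplotlib 3.10.9. Alternatives covered normalization, pseudocount, a dim filter, the variance model, array weights, the replicate block, the probe sets per gene, updated symbols, and leaving out arrays.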

Additional observations from a re-analysis of the deposited data

How the results depend on the processing

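Of 35 genes followed through each alternative, including the 18 called ones, the direction held throughout except in top1a, which ranged from −0.018 (without morphant 1) to 0.164 (without control 1), and was at −0.005 without control 3 and −0.010 with the mean of its probe sets. The 35 were picked by a call in either fit, the smallest p of their role or brightness, so a stable direction was largely built in. Among the remaining members the sign turned in orc3, orc5, gins3, rpa2, top2a, ercc2, rad51b, rad51c and rad54b. The count of 18 genes lower and 0 higher became 30 and 2 with the replicate block, 28 and 2 with array weights, and 6 lower with an unmoderated model, which has few degrees of freedom. Without both arrays numbered 1 it was 22 and 2. Shares of all named genes were computed for the main fit (3.57% lower, 3.23% higher) and the block (10.6% and 10.7%) only. Whether the calls over all genes rose or fell under the other settings is therefore not known here. Leaving out 1 array gave 9 to 19 lower, 0 to 2 higher and a median from −0.306 to −0.252. The 8 lower and 3 higher pathway genes outside the symbol patterns became 23 and 5 with the replicate block, 26 and 5 with array weights, 4 lower with median centring, 1 lower with the unmoderated model and 13 lower without both arrays numbered 1. Leaving out 1 array gave 1 to 12 lower, 2 to 4 higher and a median from −0.197 to −0.097. The 2 lower and 0 higher cell cycle genes became 6 (16.2%) and 4 (10.8%) with the block. They became 6 and 6 with array weights, and 3 were higher without both arrays numbered 1. With the mean of probe sets 1 was higher, and 1 was lower with the deposited values, median centring, no trend or the unmoderated model. Leaving out 1 array gave 0 to 3 lower and 0 to 2 higher. With the block 10 tissue markers were lower (32.3%) and 2 higher (6.5%), in place of 5 (16.1%) and 0. With the mean of probe sets the ratio of top2a to top2b, an alternative chosen after seeing the data, was 0.81 in place of 1.68. The cause of these differences was not tested. Updated symbols gave the same 60 genes. The fold of a dim probe set depends on the pseudocount.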
